A study of Homo sapiens with 4 samples.

Results

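The genes described here are 9 members of the MHC class I antigen presentation pathway: the heavy chains HLA-B, HLA-C and HLA-E, the light chain B2M, the peptide transporter subunits TAP1 and TAP2, the loading factor TAPBP (tapasin), the peptide trimming enzyme ERAP1 and the transcriptional activator NLRC5. They were taken by symbol from a table of 60671 Ensembl gene IDs, in which each symbol matched 1 ID, and all 9 passed the filter on low counts that left 16309 genes to test. The RNA came from the human neuroblastoma line SK-N-BE(2), an established line in which MYCN is amplified. A scramble hairpin (shNC, 2 libraries) was compared with a hairpin against METTL14 (shMETTL14, 2 libraries), and no other treatment or time is given in the labels. The study's methods describe lentiviral pLKO.1 hairpins and puromycin selection, list more than 1 hairpin against METTL14, and do not say whether the sequenced cells were 1 clone or which hairpin they carried. METTL14 encodes a subunit of the enzyme that writes N6-methyladenosine (m6A) on RNA. Nothing in the labels says that the libraries of a group came from separate cultures, so the p-values below measure only the spread between these libraries, which may be technical.

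MHC class I molecules show short peptides from inside the cell to CD8+ T cells. A heavy chain folds with beta-2-microglobulin in the endoplasmic reticulum, where the TAP1/TAP2 transporter brings in peptides cut by the proteasome, ERAP1 trims them, and tapasin holds the empty molecule at the transporter until a peptide fits. NLRC5 acts with factors bound at the promoters of class I genes, and neuroblastoma cells, above all those with amplified MYCN, are known for low class I at the surface. HLA-E is the exception among the heavy chains here: it mostly carries peptides from the leader sequences of other class I chains and is read by the CD94/NKG2A receptor of natural killer cells.

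HLA-B and HLA-C are neighbours on the minus strand of chromosome 6 and have closely similar promoters, with 89.0% identity over 254 aligned positions of the 250 bases before their start sites. The sequences are shown because class I promoters are known for a shared set of elements. They come from a table of RefSeq promoters on GRCh38.p14 in which 7 of the 9 genes were matched; HLA-E and NLRC5 were not. Capitals mark 5 words searched on both strands: CCAAT (bound by NF-Y), TGACG (the core of sites for CREB and ATF factors), TTTCNNTTC and TTCNNTTTC (found in interferon response elements, and able to overlap each other) and GGGANTCCC (resembling NF-kB sites). The window of HLA-B is chr6:31357180-31357429, that of HLA-C chr6:31272093-31272342, that of TAP2 chr6:32838740-32838989 and that of TAPBP chr6:33314079-33314328, all on the minus strand, and that of B2M is chr15:44711267-44711516 on the plus strand.
HLA-B: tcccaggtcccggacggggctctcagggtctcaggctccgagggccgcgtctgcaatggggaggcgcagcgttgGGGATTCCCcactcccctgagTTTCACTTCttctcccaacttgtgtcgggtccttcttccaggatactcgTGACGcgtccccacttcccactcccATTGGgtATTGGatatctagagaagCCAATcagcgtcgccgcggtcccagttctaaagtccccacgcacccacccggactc
HLA-C: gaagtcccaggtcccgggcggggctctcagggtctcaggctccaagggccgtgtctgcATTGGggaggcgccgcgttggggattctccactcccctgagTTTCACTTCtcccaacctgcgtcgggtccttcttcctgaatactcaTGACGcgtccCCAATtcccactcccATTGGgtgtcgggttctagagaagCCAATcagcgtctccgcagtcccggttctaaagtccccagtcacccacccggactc
B2M: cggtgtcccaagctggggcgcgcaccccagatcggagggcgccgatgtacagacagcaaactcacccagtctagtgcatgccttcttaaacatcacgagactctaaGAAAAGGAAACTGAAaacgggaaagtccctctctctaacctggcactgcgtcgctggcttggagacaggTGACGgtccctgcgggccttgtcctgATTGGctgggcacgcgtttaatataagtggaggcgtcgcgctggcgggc
TAP2: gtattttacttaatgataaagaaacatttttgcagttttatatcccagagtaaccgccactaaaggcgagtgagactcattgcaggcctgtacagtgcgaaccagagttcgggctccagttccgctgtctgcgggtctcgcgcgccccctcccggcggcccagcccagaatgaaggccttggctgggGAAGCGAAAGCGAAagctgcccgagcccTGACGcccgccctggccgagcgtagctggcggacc
TAPBP: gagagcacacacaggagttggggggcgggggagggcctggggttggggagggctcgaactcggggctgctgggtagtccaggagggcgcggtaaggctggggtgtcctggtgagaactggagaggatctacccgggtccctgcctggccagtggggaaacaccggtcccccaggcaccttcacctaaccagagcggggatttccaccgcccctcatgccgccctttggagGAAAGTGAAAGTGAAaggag

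Across 27305 promoter windows of the same length, CCAAT was present in 33.0%, TGACG in 21.7%, TTTCNNTTC in 6.77%, TTCNNTTTC in 7.06% and GGGANTCCC in 0.74%. HLA-B and HLA-C shared TTTCACTTC, TGACG and, nearer to the start site, CCAAT words on both strands. HLA-B had GGGATTCCC starting 176 bases before its start site, and the HLA-C window had no match to GGGANTCCC. B2M held TGACG and CCAAT, the latter as ATTGG, and overlapping matches to TTCNNTTTC. TAP2 held TGACG and both interferon response words, and TAPBP held overlapping copies of GAAAGTGAA. For TAP1 and ERAP1 the table gives more than 1 start site. The first window of TAP1 held overlapping matches to TTCNNTTTC, as TTCGATTTC and TTCGCTTTC. These are matches of letters, and binding was not measured.

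GGACT is the most common form of the sequence in which m6A is placed, so the longest coding transcript of each gene in GENCODE 29 was searched for it as well. The median over 12832 tested coding genes was 0.928 copies per kilobase. HLA-E had 5 copies, or 1.92 per kilobase, a density that 9.33% of those genes exceeded, and none of the 5 lay in the coding part. NLRC5 had 11 copies (1.61 per kilobase), 9 of them coding, and TAP2 had 8 (1.41 per kilobase). HLA-C (0.644 per kilobase), B2M (0.587) and ERAP1 (0.546) lay below the median. HLA-B and HLA-C shared 1 copy just past the end of the coding sequence, 32 and 22 bases from its last base, with the same 10 bases after it. The copies of HLA-E, HLA-B and HLA-C past the coding end are shown with 10 bases on each side and the word in capitals. In GRCh38 the words lie at chr6:30492845-30492849, chr6:30493366-30493370 and chr6:30493665-30493669 on the plus strand for HLA-E, at chr6:31354270-31354274 on the minus strand for HLA-B and at chr6:31269148-31269152 on the minus strand for HLA-C.
HLA-E, nearest to the coding end: gtgtcttaggGGACTctggcttctc
HLA-E, next: gcaatgaaatGGACTtgaggaagct
HLA-E, farthest: cacaggaatgGGACTggtggcttta
HLA-B: gtcttgtgagGGACTgagatgcagg
HLA-C: tgcctgtgtgGGACTgagatgcagg
Methylation of these sites was not measured in the libraries.

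Depth was even, with 18925786 to 19886214 counts in genes per library. METTL14 itself had 753 and 754 counts in the shNC libraries and 303 and 321 in the shMETTL14 libraries, so that 41.7% of its control level remained (log2 fold change -1.26, SE 0.0832, edgeR adjusted p 3.6e-11). Markers of sympathetic neuroblastoma cells were expressed: all 14 of a marker list passed the filter. Their summed levels were 6513 to 6682 CPM (counts scaled to library size, after TMM normalization) in shNC and 6438 to 6492 CPM in shMETTL14. MYCN alone held 2637 and 2596 CPM of these sums in shNC and 3153 and 3193 CPM in shMETTL14. Its rise masks falls of other markers in the sums. Of these 14, 12 passed the test (85.7%, against 52.5% of all tested genes), 3 higher and 9 lower: DBH, CHGB and CHGA fell by 0.79, 0.59 and 0.53 on the log2 scale, and MYCN, ISL1 and HAND1 rose by 0.28, 0.28 and 0.12 (HAND1 called under 5 of 11 alternatives). Of 15 mesenchymal state markers, 14 were tested and 11 passed (78.6%), 3 higher and 8 lower (6 passed with DESeq2). The 3 that rose were COL1A2, FOSL1 and FN1, by 1.83, 1.39 and 0.46 on the log2 scale. Among the 8 that fell, YAP1, TGFBR2, PRRX2 and SNAI2 fell by 2.06, 1.28, 0.82 and 0.56. COL1A2 (2 and 6 counts in shNC, 11 and 18 in shMETTL14) and YAP1 (16 and 10, then 6 and 0) had few counts and were not called by DESeq2. The summed level of that list was 2828 to 2884 CPM in shNC and 2839 to 2907 CPM in shMETTL14. Of 16 leukocyte markers only PTPRC passed the filter, it was not called, no marker exceeded 40 counts, MS4A1 and NKG7 had 0 in every library, and the list summed to 2.49 to 3.22 CPM. What part these marker changes have in the class I results was not tested. In bulk RNA, fewer cells that express a gene and less of its RNA in each cell cannot be told apart.

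Class I genes moved in both directions after METTL14 knockdown. HLA-E fell to 28.3% of its control level, while NLRC5 rose 2.26-fold and TAP2, HLA-C, TAPBP and B2M rose by smaller steps. HLA-B, TAP1 and ERAP1 did not pass the test. In all, 6 of the 9 genes were called at an edgeR adjusted p under 0.05, where 52.5% of all tested genes were called. A total of 5 were higher (27.2% of all tested genes were called higher) and 1 was lower (25.3%). The median log2 fold change of the 9 was 0.24, beside 0.00 over all tested genes.

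**Figure D1:**
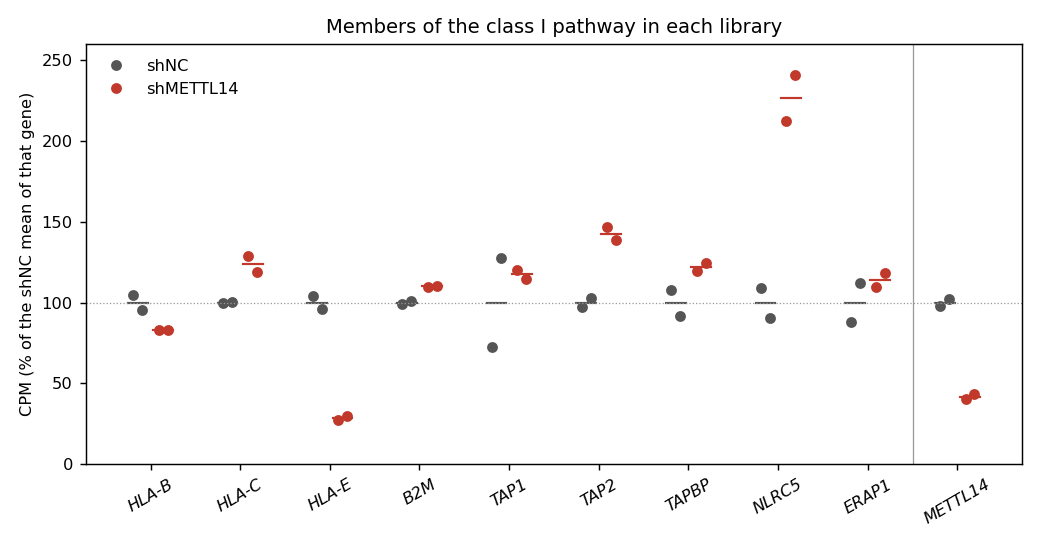
Level of each class I gene in each library, in CPM as a percentage of that gene's shNC mean, with METTL14 at the right; points are the 2 libraries of a group and short lines are group means. HLA-E lay near 28.3% of control in both shMETTL14 libraries and NLRC5 rose to 226% on average, while the points of TAP1 and ERAP1 overlapped between groups.

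HLA-E (ENSG00000204592, chr6:30489467-30494205, plus strand) had 306 and 270 counts in the shNC libraries and 78 and 84 in the shMETTL14 libraries. The groups were far apart relative to the spread within each, at 14.7 ± 0.886 CPM and 4.17 ± 0.269 CPM (SD, n = 2 each), a 3.53-fold lower level. The log2 fold change was -1.82 (SE 0.136, 95% interval -2.10 to -1.54), with an edgeR adjusted p of 3.0e-10. Only 1.65% of tested genes had a lower log2 fold change, and 97.6% had a smaller change in either direction. No other annotated gene overlaps HLA-E, and no 150-base window of its longest coding transcript, the length of a read, recurs in another annotated gene.

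HLA-C, a classical heavy chain and the main ligand of many inhibitory killer cell receptors, moved the other way. Its counts were 399 and 386 in shNC and 506 and 461 in shMETTL14, so every shMETTL14 library lay above both controls. Its level rose from 20.1 ± 0.0987 to 24.9 ± 1.34 CPM (SD, n = 2 each), with a log2 fold change of 0.31 (SE 0.0863, edgeR adjusted p 0.0046). The call is not a firm one: the adjusted p was 0.076 with DESeq2 and 0.053 without shMETTL14 replicate 1, at similar fold changes of 0.32 and 0.26. HLA-C (ENSG00000204525) lies at chr6:31268749-31272130 on the minus strand.

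HLA-B, the classical heavy chain next to HLA-C, was scarce in these cells. It had 72 and 63 counts in shNC and 56 and 55 in shMETTL14. Both shMETTL14 libraries lay below both shNC libraries, but the difference was within the error that such counts allow, with a log2 fold change of -0.27 (SE 0.224, 95% interval -0.74 to 0.19, edgeR adjusted p 0.32). A difference between the responses of HLA-B and HLA-C was not tested. In GENCODE 29, HLA-B (ENSG00000234745) spans chr6:31269491-31357188 on the minus strand because 1 transcript model runs on to HLA-C, with which it shares 35 exonic bases, and 8.8% of the 150-base windows of its longest coding transcript recur in the pseudogene AL671883.2, which had at most 1 count in any library. HLA genes differ between people in sequence, and the reads of this line were aligned to a reference that need not carry its alleles, so levels of HLA-B and HLA-C relative to each other carry that uncertainty.

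Of the other class I heavy chain genes, HLA-F had 5 counts or fewer in each library and HLA-G had 0, and neither was tested.

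B2M, which encodes the light chain shared by all class I molecules, was the most abundant of the 9 by counts. It had 7096 and 6949 counts in shNC and 7734 and 7628 in shMETTL14. The rise was small but larger than the spread between libraries, from 359 ± 4.86 to 396 ± 0.956 CPM (SD, n = 2 each), with a log2 fold change of 0.14 (SE 0.038, edgeR adjusted p 0.0041). With upper quartile scaling, which shifts the median of all genes by -0.07 on the log2 scale, the value was 0.07 and the adjusted p 0.13. B2M (ENSG00000166710) lies at chr15:44711487-44718877 on the plus strand.

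**Figure D2:**
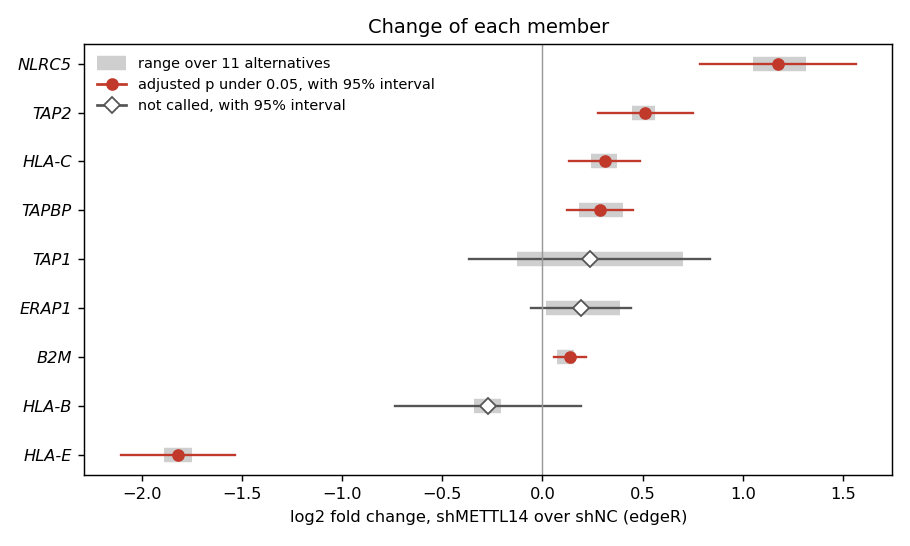
Log2 fold change of each class I gene, shMETTL14 over shNC, from edgeR, with its 95% interval (line) and its range over 11 alternative analyses (grey bar); filled circles are called at an adjusted p under 0.05 and open diamonds are not. HLA-E at -1.82 and NLRC5 at 1.17 stood outside the range of the other 7 genes, and the grey bar of TAP1 crossed 0.

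The transporter subunits gave unequal answers. TAP2 had 188 and 190 counts in shNC and 278 and 258 in shMETTL14, without overlap. It rose from 9.68 ± 0.347 to 13.8 ± 0.561 CPM (SD, n = 2 each), a log2 fold change of 0.51 (SE 0.114, 95% interval 0.28 to 0.75, edgeR adjusted p 0.00067). TAP2 (ENSG00000204267, chr6:32821833-32838780, minus strand) shares 32.3% of its exonic bases with the overlapping gene model AL669918.1, which was listed at 0 in every library, so that reads there may have been dropped as ambiguous in all 4 libraries.

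TAP1, its partner subunit, had 30 and 51 counts in shNC and 49 and 46 in shMETTL14. The control libraries enclosed both shMETTL14 libraries. The log2 fold change was 0.24 (SE 0.289, 95% interval -0.36 to 0.84, edgeR adjusted p 0.52), and it ran from -0.13 without shNC replicate 1 to 0.70 without shNC replicate 2. A rise of the size seen for TAP2 and no change both lie inside this interval, and the difference between the subunits was not tested. TAP1 (ENSG00000168394, chr6:32845209-32853978, minus strand) shares 9.5% of its exonic bases with PSMB8-AS1 on the other strand.

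TAPBP encodes tapasin, the bridge between the transporter and the empty heavy chain. Its counts were 678 and 555 in shNC and 738 and 756 in shMETTL14. It rose from 31.5 ± 3.56 to 38.5 ± 1.12 CPM (SD, n = 2 each), with a log2 fold change of 0.29 (SE 0.0802, edgeR adjusted p 0.0047). The control libraries were unequal, and without shNC replicate 2 the value was 0.18 with an adjusted p of 0.083. TAPBP (ENSG00000231925) lies at chr6:33299694-33314387 on the minus strand, overlapped by no other gene.

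ERAP1 trims the amino end of peptides in the endoplasmic reticulum. It had 220 and 271 counts in shNC and 271 and 287 in shMETTL14, and the groups overlapped in CPM. The log2 fold change was 0.19 (SE 0.119, 95% interval -0.05 to 0.44, edgeR adjusted p 0.18). Without shNC replicate 2 it was 0.39 with an adjusted p of 0.022, and no other alternative called ERAP1. ERAP1 (ENSG00000164307, chr5:96760810-96808100, minus strand) overlaps CAST on the other strand, and CAST had 1486 to 1559 counts per library.

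NLRC5, the class I transactivator, was the member that rose most. It had 64 and 51 counts in shNC and 122 and 136 in shMETTL14, so the lower shMETTL14 library lay well above the higher control. Its level went from 2.94 ± 0.387 to 6.65 ± 0.591 CPM (SD, n = 2 each), a log2 fold change of 1.17 (SE 0.187, 95% interval 0.79 to 1.56, edgeR adjusted p 1.7e-05). Of the 16309 genes, 2.1% had a larger positive log2 fold change. HLA-E and NLRC5 were the 2 members that changed at least 2-fold, as did 8.79% of all tested genes. NLRC5 (ENSG00000140853) lies at chr16:56989485-57083531 on the plus strand and shares no exonic base with another gene.

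Without regard to the test, 7 of the 9 genes had groups that did not overlap in CPM, against 75.5% of all tested genes. HLA-E, NLRC5 and TAP2 were called under each of 11 alternative analyses, and HLA-B and TAP1 under none of them. The number of members called stayed between 5 and 6.

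Levels can be compared between genes only per length, and counts were therefore divided by the union of annotated exons and scaled to the same total in each library, as in TPM. In the control cells the order was B2M (194 ± 1.28, SD, n = 2), HLA-C (26.3 ± 0.053), TAPBP (20.5 ± 2.45), HLA-E (16.3 ± 1.09), ERAP1 (5.20 ± 0.874), TAP2 (4.97 ± 0.144), HLA-B (3.72 ± 0.271), TAP1 (1.42 ± 0.55) and NLRC5 (0.779 ± 0.108). The levels of ERAP1 and TAP2 overlapped between libraries and cannot be ordered. With the length of the longest coding transcript in place of the union of exons, B2M stood at 496 and HLA-E at 13.3, and HLA-B (5.25) lay above TAP2 (4.01), so the order of those 2 genes depends on the length used.

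In the shMETTL14 cells HLA-E stood at 4.26 ± 0.252 on this scale, below TAP2 (6.56 ± 0.301) and ERAP1 (5.49 ± 0.26) and above HLA-B (2.85 ± 0.0167); with the longest coding transcript HLA-E (3.53) lay below HLA-B (4.06). NLRC5 (1.63 ± 0.136) and TAP1 (1.55 ± 0.0584) overlapped there and could not be ordered. B2M was at 198 ± 0.57, close to its control level on this scale. Of the summed level of HLA-B, HLA-C and HLA-E on this scale, HLA-E made up 36.0% and 34.2% in the shNC libraries and 10.6% and 12.3% in the shMETTL14 libraries, without overlap, and no test of 2 against 2 values can give a permutation p under 0.333.

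**Figure D3:**
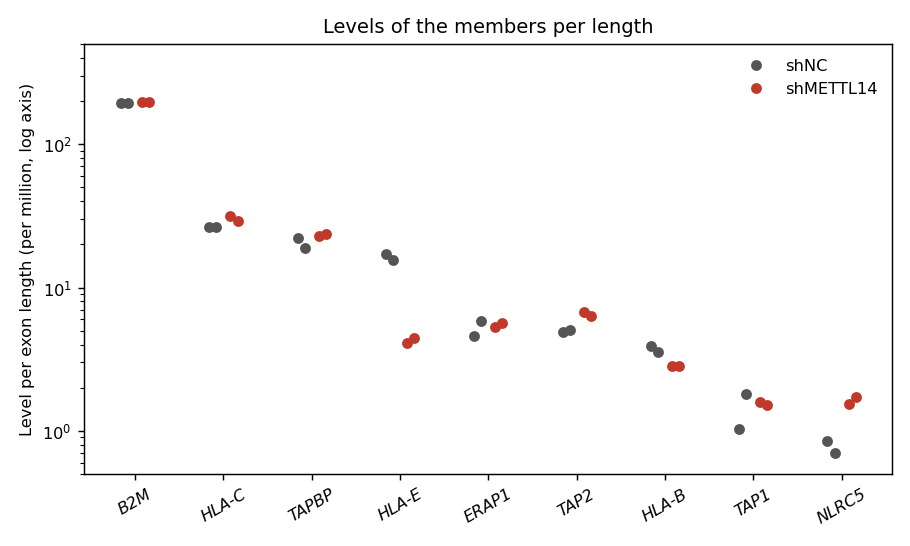
Level of the 9 class I genes in each library, as counts per length of the union of exons scaled to the same total in each library, on a log axis; genes are ordered by the shNC mean. B2M lies far above the rest, and HLA-E moved from 16.3 in shNC to 4.26 in shMETTL14.

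Of the partners that fold and load class I molecules, 9 were tested, 5 rose and 2 fell, with a median log2 fold change of 0.53. That is 77.8% called, against 52.5% of all tested genes (27.2% higher, 25.3% lower). CALR (calreticulin, the lectin chaperone of the loading complex) went from 15514 and 14997 counts to 22822 and 22033 (log2 fold change 0.57, edgeR adjusted p 1.8e-11). PDIA3 (ERp57, which is bound to tapasin) rose by 0.58, HSPA5 (BiP) by 1.04, P4HB by 0.51 and UGGT1, which tests glycoprotein folding, by 0.53. LNPEP, an aminopeptidase of endosomes used in cross-presentation, fell by 0.72 and CANX (calnexin) by 0.10, the latter called under 6 of 11 alternatives. These chaperones serve all secreted proteins and not class I alone.

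Of the proteasome subunits that cut class I peptides and their activators, 6 of 8 tested were higher (27.2% of all tested genes were) and none of the 8 was called lower, with a median log2 fold change of 0.23. The count was 4 with upper quartile scaling, with DESeq2, when scaled by library size alone and without shNC replicate 1, shMETTL14 replicate 1 or shMETTL14 replicate 2. PSMB8, an interferon-inducible catalytic subunit, went from 93 and 98 counts to 170 and 160 (log2 fold change 0.80, SE 0.152, edgeR adjusted p 0.00014). Its constitutive counterpart PSMB5 rose by 0.58 from 2923 and 2979 counts, and PSMB7 and PSMB6 rose by 0.22 and 0.24. The activator subunits PSME1 and PSME2 rose by 0.16 and 0.17, each called under 5 of 11 alternatives. PSMB9, which lies back to back with TAP1, had 0 and 2 counts in shNC and 7 and 3 in shMETTL14, too few to test.

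Transcription regulators of class I genes were split. Of 28 tested, 7 were higher and 7 lower, with a median log2 fold change of 0.00. The 50% called was close to the 52.5% of all tested genes, and DESeq2 called 7 in all. SP1, a general promoter factor, fell by 1.19 from 8192 and 7687 counts to 3473 and 3434, and CREB1 fell by 0.39. Among those that rose were MYCN (log2 fold change 0.28), NFKB1 (0.29), RELA (0.16) and EZH2 (0.12), the catalytic subunit of a complex known to silence class I genes; RELA and EZH2 were each called under 5 of 11 alternatives. RFX5, a subunit of the RFX complex with which NLRC5 acts at class I promoters, had a log2 fold change of 0.02 (edgeR adjusted p 0.76). IRF1 (-0.16, adjusted p 0.64) and IRF2 (0.14, adjusted p 0.26) were not called. CIITA, the class II counterpart of NLRC5, had 7 and 7 counts against 3 and 3 and was not tested.

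Interferon is the main inducer of class I genes, so its receptors and targets were read beside them. The list of receptors and kinases of the interferon and TNF pathways, called by that name below, also held the inhibitors SOCS1, SOCS3 and PTPN2. Of its 13 tested genes, 7 rose and none was called lower, with a median log2 fold change of 0.19. SOCS1 was among the 7, going from 6 and 7 counts to 17 and 17 (log2 fold change 1.38, edgeR adjusted p 0.026, DESeq2 adjusted p 0.22). SOCS3 and PTPN2 were not called. The share called, 53.8%, was close to the 52.5% of all tested genes, of which 27.2% were higher and 25.3% lower. The count was 4 without shNC replicate 2, without shMETTL14 replicate 1 or without shMETTL14 replicate 2, and 2 with DESeq2. They included IFNGR1 (0.43), JAK1 (0.20), IFNAR2 (0.78, from 63 and 40 counts to 76 and 100) and TYK2 (0.17), of which IFNAR2 and TYK2 were not called by DESeq2 and IFNAR2 not without shNC replicate 2 or shMETTL14 replicate 2. The interferon-stimulated genes did not move one way: of 22 tested, 6 rose and 7 fell, with a median of -0.02, and the 59.1% called lay near the 52.5% of all tested genes. OAS1 and BST2 fell by 0.75 and 0.63, XAF1 went from 48 and 35 counts to 3 and 1 (edgeR adjusted p 9.5e-07), and PARP9 rose by 0.58. PSMB8 also stands in this list and rose.

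**Figure D4:**
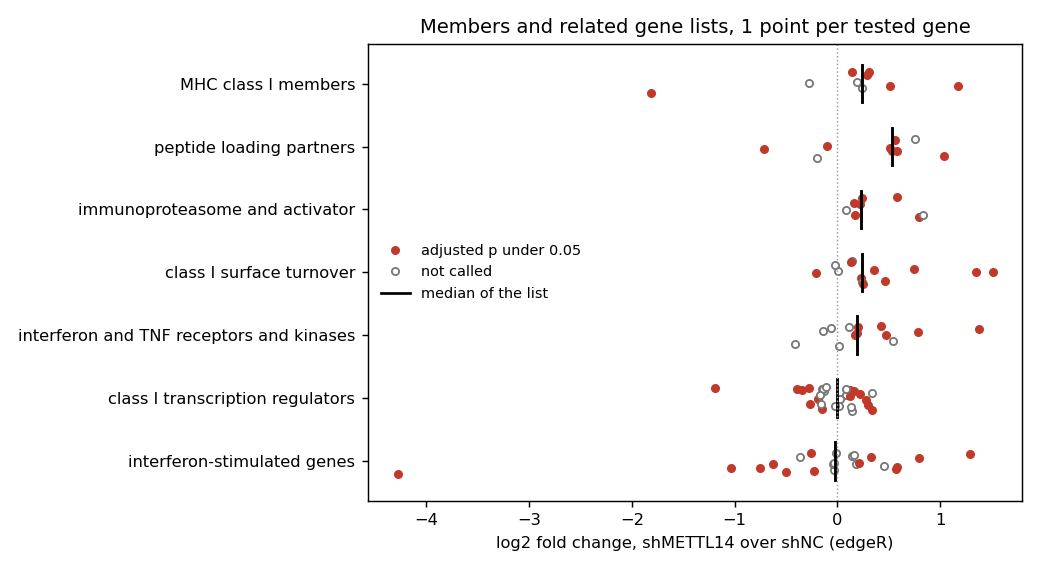
Log2 fold change, shMETTL14 over shNC, of every tested gene in the class I set and 6 related lists; filled points are called at an edgeR adjusted p under 0.05, open points are not, and bars are list medians. Medians of the loading partners (0.53), the list of class I surface turnover (0.24) and the proteasome list (0.23) lie above 0. The median of the receptors, kinases and their inhibitors (0.19) does as well. Medians of the regulators and the interferon-stimulated genes lie at or near 0. The point at the far left is XAF1, whose shMETTL14 counts were 3 and 1.

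A total of 6 of the 9 genes lie in the MHC region of chromosome 6, taken from GABBR1 to KIFC1 (chr6:29555629-33409924, GENCODE 29, GRCh38). Of 113 genes tested there, 50 were called (44.2%), 31 higher and 19 lower, and of the 107 that remain without the class I members 46 were called (43.0%), against 52.5% of all tested genes. The median log2 fold change of those 107 genes was 0.06. DESeq2 called 32 of the 113.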

How the data were processed

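RNA sequencing of SK-N-BE(2) cells gave 4 libraries, 2 per group, read as paired ends of 150 bases. The authors deposited raw read counts per Ensembl gene ID. The submitters' processing notes name HISAT2 2.1.0, StringTie 1.3.6, HTSeq 0.13.5 and edgeR, and the builds GRCh38 and hg38; the annotation release and strand setting are not given in the sources used here. Without a known strand setting, reads of genes that overlap on opposite strands may be lost or misassigned. Lines that name no gene held 19.1% to 19.9% of all counts and were left out.

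The deposited counts were tested with edgeR 4.0.16 in R 4.3.3 (quasi-likelihood F-test, TMM, filterByExpr with a minimum count of 10 and total of 15, group only), with Benjamini-Hochberg adjustment over 16309 genes and a threshold of 0.05, after the procedure was tested on simulated data. The standard error is the fold change over the square root of F. CPM uses TMM-scaled library sizes. A floor of 3 counts in a library corresponds to 0.151 to 0.159 CPM, and the precision of all values is limited by 2 libraries per group. Alternatives were DESeq2 1.42.0, 3 other scalings, 2 other filters, a replicate block and leaving out each library, 11 in all.

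Libraries of a group differed by more than sampling noise (mean chi-square per gene 2.66 and 2.21, against 30.5 to 31.5 between groups) and were kept as separate replicates. Gene positions and lengths are from GENCODE 29 and promoters from RefSeq.

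The 14 gene lists, with the class I members among them, were chosen with earlier results of these data known. They hold class I, peptide loading, proteasome, regulator, interferon, surface turnover, class II, pseudogene and cell marker genes. Named genes are METTL14, the members, 15 related genes chosen with the lists, and from each list the 4 called genes with the smallest adjusted p. UGGT1, LNPEP, CANX, PSME1, PSME2, TRAF3, ISL1, HAND1, SOCS1, SOCS3, PTPN2, COL1A2, FOSL1 and YAP1 were named after their values were seen. Some of the genes that this rule names are not reported here.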

Additional observations from a re-analysis of the deposited data

How the results depend on the processing

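Of 99 comparisons of a class I member's fold change with an alternative, 93 kept the direction and the side of the threshold, 4 lost the call, 1 gained it and 1 turned its direction. The last was TAP1 without shNC replicate 1 (-0.13), and its values with a library left out ran from -0.13 to 0.70. RFX5, not called, turned to -0.0486 with upper quartile scaling and -0.026 with library size alone, and ran from -0.0247 without shNC replicate 1 to 0.0636 with a library left out. DESeq2 called 5538 genes in all, 32 in the MHC region, 7 regulators, 2 receptors and kinases, 5 surface turnover genes, 6 mesenchymal markers, and 0 class I-like and 0 class II genes. The filter of 10 counts in every library also left 0 class II genes called. Class I-like genes called numbered 2 under the replicate block and when scaling was by upper quartile or by library size alone, and 0 to 1 with a library left out. With a library left out, 4 to 6 receptors and kinases and 7 to 11 mesenchymal markers were called. The causes were not tested. Upper quartile scaling lowered the share of called genes that were higher from 51.8% to 41.7%.

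No pairing by replicate number was seen over all genes. Across 16309 genes, what set a library apart from its group mean correlated at r = -0.00195 (Pearson) with the same quantity in the library of that number in the other group. Every gene weighed the same in this value, so noise at low counts could hide a small effect shared by libraries of a number. The replicate block gave 8926 called genes instead of 8561, and 6 class I members as before. Counts under 100, as for HLA-B, TAP1 and NLRC5 in the control, limit precision most.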

Other observations

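Of 13 tested genes in a list linked to class I surface turnover or level, 8 rose and 1 fell, with a median log2 fold change of 0.24. That is 69.2% called, against 52.5% of all tested genes (27.2% higher, 25.3% lower), and DESeq2 called 5 in all. MARCHF4, a membrane ubiquitin ligase that can remove class I from the surface, went from 293 and 243 counts in shNC to 667 and 693 in shMETTL14 (log2 fold change 1.35, SE 0.0909, edgeR adjusted p 5.2e-11). IRGQ, an autophagy receptor for class I, rose by 0.75 from 375 and 302 counts to 574 and 557. TMEM127, which with SUSD6 and WWP2 directs class I to degradation, rose by 0.46, and BCAP31, an export factor of the endoplasmic reticulum, rose by 0.36. TRAF3 fell by 0.21 and was not called by DESeq2.

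Class I-like molecules were mostly silent: 13 of 18 did not pass the filter. Of the 5 tested, FCGRT, the neonatal Fc receptor, which also pairs with B2M, went from 391 and 349 counts to 276 and 314 (log2 fold change -0.32, edgeR adjusted p 0.012); it was not called by DESeq2, without shNC replicate 1 or without shMETTL14 replicate 1. Of 12 class II genes, 4 were tested, and HLA-DOA, a chain of the class II modulator HLA-DO, had 22 and 19 counts against 5 and 6 (log2 fold change -1.86, SE 0.505, edgeR adjusted p 0.0037), a call that DESeq2 did not make. Of 14 class I pseudogenes, 12 were matched and 2 tested, and neither was called.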
